A study of Mus musculus with 15 samples.

Results

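The genes examined here encode the enzymes that chemically alter drugs, toxins, steroids and bile acids. They were chosen by name, as the autosomal probes of the array whose gene name starts with Cyp (cytochromes P450), Ugt (UDP-glucuronosyltransferases), Sult (sulfotransferases) or Gst of the alpha, mu, pi, theta, omega or zeta class (glutathione S-transferases), each followed by a digit. This gave 177 probes for 104 genes, of 40726 autosomal probes carrying 25916 names or positions. The set held 66 Cyp genes (109 probes), 18 Gst genes (27 probes), 10 Sult genes (20 probes) and 10 Ugt genes (21 probes), on 15 of the 19 autosomes. The rule uses gene names alone.

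The copy number of these genes was measured by array comparative genomic hybridization, in which tissue DNA and reference DNA carry different dyes and bind together to short probes on a slide. The 8 tissues came from 3 mice of the strain C57BL/6.129-Mad2flox,p53flox,AlbuminCre. All were Mad2(f/f), so the unaffected livers carried the same floxed alleles and the same Cre as the hepatocellular carcinomas (HCC). Mad2 (Mad2l1) is a spindle checkpoint gene and p53 (Trp53) a tumor suppressor. The albumin promoter confines Cre to cells of the hepatocyte lineage, so DNA of other liver cells in a sample is not recombined. Mouse 3151 was a p53(f/+) female of 16.4 months and gave tumors 3151LT1 and 3151LT2. Mouse 3760 was a p53(f/f) male of 13.8 months and gave tumor 3760LT2. Mouse 4033 was a p53(f/f) male of 13.9 months and gave tumors 4033LT1 and 4033LT2. Each mouse also gave 1 unaffected liver, so that 5 HCC were compared with 3 livers. The reference DNA came from normal C57BL/6.129 liver, described in the methods as wild type, of the sex opposite to that of the mouse, and mouse 3151 therefore had another reference sex than mice 3760 and 4033. Tumors and liver of 1 mouse are samples of 1 animal, and p-values over them measure the spread between these tissues.

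Xenobiotic metabolism proceeds in steps. Cytochromes P450 add an oxygen to the compound, and transferases then attach glucuronic acid, sulfate or glutathione, which makes it more soluble and ready for export in bile or urine. Hepatocytes carry most of this capacity. Many of the genes lie in tandem arrays of close relatives that arose by duplication. By the cluster rule used below, 56 of the 104 genes lay in clusters. Tandem arrays are known as places where mouse strains differ in copy number. An array of this kind can change copy number with its whole chromosome, through a segment with an end inside the chromosome, or on its own. The level of a probe is given here as log2 of tissue over reference. The same level minus the median of the probe's chromosome in that tissue is called the relative level, and it removes the gain or loss of the whole chromosome.

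The 15 arrays lay on 4 slides scanned on 2 days. The median spot was 3.78 to 6.88 times its background in green, and 3.72 to 7.95 times in red. Between 0 and 6 spots of these genes per array were not well above background, and none were saturated. Noise between neighboring probes was 0.08 to 0.11 in 3760 liver, 4033 liver and 4033LT1 and 0.17 to 0.20 in the other 5 tissues. 3760LT2 was measured in 1 dye orientation, the other 7 tissues in both. Across the 177 probes, which are not independent replicates, levels of the 2 orientations correlated with r of 0.30 to 0.61 in the 4 HCC with both and -0.11 to 0.10 in the livers. Relative levels of the 2 orientations correlated with r of only -0.20 to 0.10 over the 7 tissues, so a relative level of 1 probe in 1 tissue mostly did not repeat between orientations. The floxed genes were covered by 1 probe each, and whether these probes lie in the floxed parts was not determined. The Mad2l1 probe was at 0.01, -0.71 and -1.22 in the liver, LT1 and LT2 of mouse 3151, at 0.36 and 0.08 in the liver and LT2 of mouse 3760, and at 0.69, 0.59 and 0.53 in the liver, LT1 and LT2 of mouse 4033. It was thus lower than the reference in the tumors of mouse 3151 alone, while every HCC read below the liver of its own mouse. With 1 probe of undetermined placement, loss of Mad2l1 was not tested. The level of the Trp53 probe was -0.07, -1.14 and -1.06 in the liver, LT1 and LT2 of mouse 3151. In mouse 3760 it was -0.88 in the liver and -0.19 in LT2. In mouse 4033 it was -0.72, -2.03 and -2.07 in the liver, LT1 and LT2. Only 3760LT2 read above its own liver.

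To ask whether the enzyme genes changed copy number in HCC, their levels were compared between 5 HCC and 3 livers. Limma called 0 of 177 probes of these genes and 0 of all 40726 (background 0.0%). An unadjusted p under 0.05 was reached by 16 of 177 (12 higher and 4 lower in HCC) and by 3012 of 40726. The median difference was -0.05 over the 177 probes and -0.0011 over all. Every HCC lay above every liver at 9 of 177 probes (background 5.3%) and below at 4 (background 3.22%), which is close to the background in both directions. The same comparison of relative levels also called 0 of 177 probes and 0 of 40726 (background 0.0%). An unadjusted p under 0.05 was reached there by 1 of 177 and by 625 of 40726. Every HCC lay above every liver in relative level at 1 probe (background 0.85%), a probe of Cyp2b19, and below at 0 (background 1.22%). No member was called under any alternative, within either scan day, or with the mouse as a block.

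With all 8 tissues in the fit, most of the small p-values of these genes lay on Chr15. Of the 12 probes higher in HCC at an unadjusted p under 0.05, 11 were among the 14 probes on Chr15, where 84.1% of all 1631 probes were at that p. The mean level of the 14 Chr15 probes was 0.51 ± 0.20 (SD) over the 5 HCC. Over the 3 livers it was 0.03 ± 0.07 (SD). The difference was 0.48, which was 0.38 within scan day 1 (2 HCC, 2 livers) and 0.56 within scan day 2 (3 HCC, 1 liver). All 14 differences were positive, from 0.30 to 0.66. Their median was 0.49 in level and 0.02 in relative level, beside 0.47 in level over all probes of Chr15. The remaining probe, of Ugt2a1, lay on Chr5. The balance of directions depended on the tissues and arrays, for these genes and for the array as a whole. Without 3151LT1, 31 probes were at an unadjusted p under 0.05, of which 15 were higher in HCC. Over all 40726 probes it was 5091 with 3099 higher. Without 3760LT2 it was 25 with 13 higher, beside 4113 with 2364 higher over all. On dye-swap arrays alone it was 24 with 11 higher, beside 3817 with 2057 higher over all. Without 4033 liver it was 8 with 7 higher, beside 1539 with 1291 higher over all.

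The smallest p of the level belonged to a probe of Sult4a1, a sulfotransferase best known from brain. Its level was 0.59 in 3151LT1, 0.74 in 3151LT2, 0.35 in 3760LT2, 0.67 in 4033LT1 and 0.90 in 4033LT2, against -0.09, 0.00 and 0.07 in the livers of mice 3151, 3760 and 4033. HCC and liver did not overlap, and the difference of 0.66 (SE 0.15) had a limma adjusted p of 0.309 over all probes. The other 2 probes of Sult4a1 differed by 0.51 and 0.52. Both probes of Ugt3a2, an enzyme of the same family as the glucuronosyltransferases, were above every liver in 5 of 5 HCC, with differences of 0.47 and 0.49. So was the probe of Ugt3a1 nearer the start of Chr15, with 0.53. Cyp11b2, the aldosterone synthase gene, differed by 0.60, from 0.02 to 0.75 in HCC and from -0.49 to 0.16 in liver, so that the groups overlapped. Cyp2d9 was at 0.21 to 0.96 in HCC and 0.02 to 0.20 in liver.

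The 4 probes lower in HCC at an unadjusted p under 0.05 were of Ugt8a on Chr3, Cyp7a1 and Cyp2j13 on Chr4, and Cyp2g1 on Chr7. Cyp7a1 is the rate-limiting enzyme of bile acid synthesis. Its probe with the smaller p was at -0.38, -0.19, -0.25, -0.56 and -0.56 in 3151LT1, 3151LT2, 3760LT2, 4033LT1 and 4033LT2, and at 0.16, -0.11 and -0.11 in the livers of mice 3151, 3760 and 4033. Every HCC lay below every liver, by a mean of -0.37 (SE 0.15, limma adjusted p = 0.59). The second Cyp7a1 probe did not separate the groups, with -0.45 to 0.05 in HCC and -0.15 to 0.01 in liver. Relative to Chr4 the first probe differed by -0.18 and the second by 0.00.

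**Figure D1:**
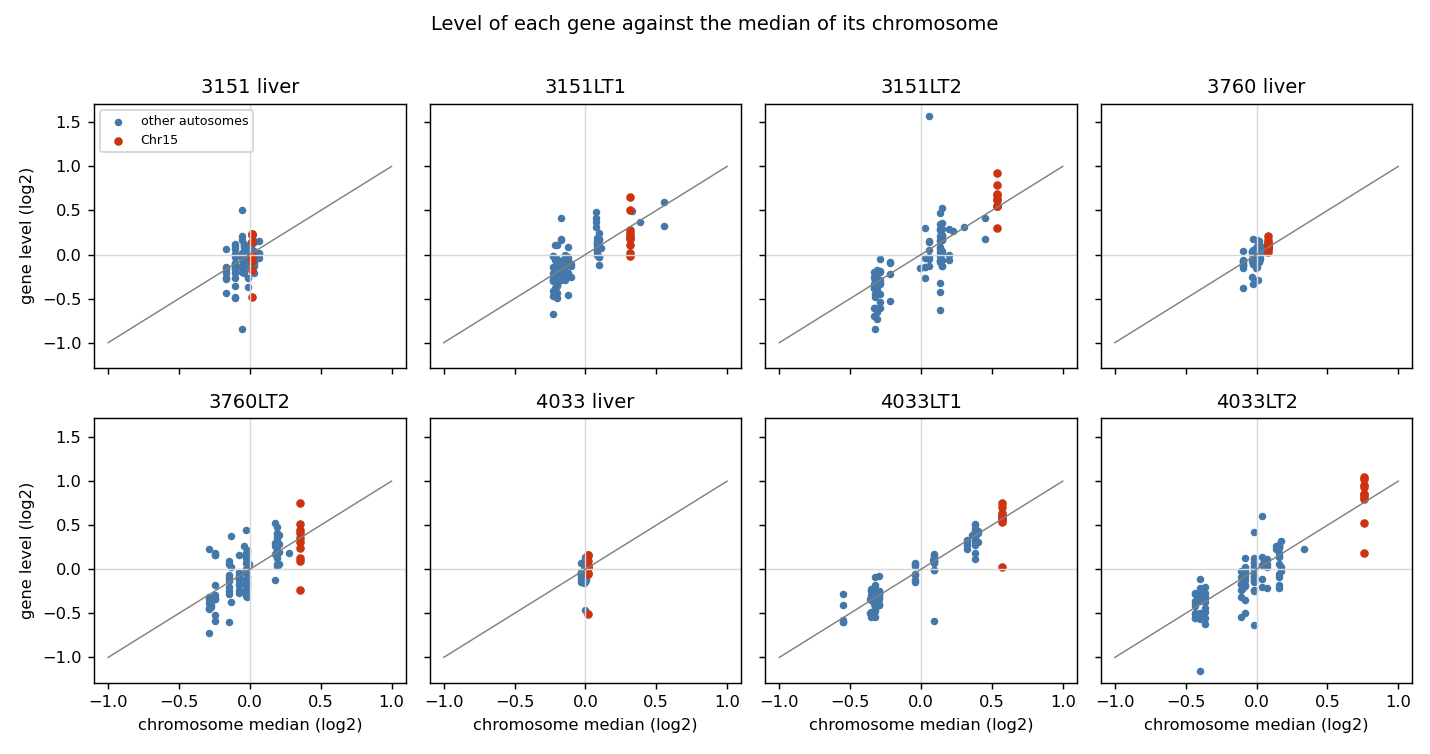
Level of each of the 104 genes (mean over its probes, log2 tissue/reference) against the median level of its chromosome (log2), 1 panel per tissue, with Chr15 genes in red and the line of equal values in gray. Genes spread along the line in the 5 HCC, with Chr15 at a median of 0.32 to 0.76. In the 3 livers the plotted chromosome medians run from -0.17 (Chr4 in 3151 liver) to 0.08 (Chr15 in 3760 liver). Single genes lie further away. In 3151 liver they reach -0.84 (Cyp39a1) and 0.50 (Cyp4f14).

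How far the genes followed their chromosomes was described for each tissue. A chromosome whose mean level reached 0.3 in either direction carried 0 of the 104 genes in every liver. In HCC, gained chromosomes carried 14 genes in 3151LT1, 12 in 3151LT2, 10 in 3760LT2, 31 in 4033LT1 and 11 in 4033LT2. Lost chromosomes carried 31 genes in 3151LT2, 43 in 4033LT1, 29 in 4033LT2 and none in 3151LT1 and 3760LT2. Centering on the mode of probe levels moved the baseline of 4033LT1 by -0.25, that of 3151LT2 by -0.11 and that of no other tissue by 0.1 or more, so the split of 4033LT1 into gains and losses rests on its baseline. Subtracting the chromosome median removed 81.5% of the variance of member levels in 4033LT1, 64.7% in 4033LT2, 56.3% in 3151LT2, 45.8% in 3151LT1 and 37.2% in 3760LT2. In the livers it removed 1.7% to 17.3%. The tissue with the largest share, 4033LT1, had a noise of 0.11, and that with the smallest share among HCC, 3760LT2, had a noise of 0.20 and 1 array. The part of noise in these shares was not tested.

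What was left after this subtraction resembled the rest of the array. The SD of relative levels was 0.11 to 0.27 over the 177 probes and 0.15 to 0.25 over all autosomal probes. At least 0.3 from the chromosome median were 9.6% of the 177 probes in 3151 liver, 15.3% in 3151LT1, 18.1% in 3151LT2, 2.26% in 3760 liver, 21.5% in 3760LT2, 1.13% in 4033 liver, 3.95% in 4033LT1 and 12.99% in 4033LT2. Over all autosomal probes these shares were 11.3%, 14.8%, 12.7%, 2.62%, 15.6%, 2.74%, 5.08% and 13.6% in the same order. Of the 177 probes, 84 (47.5%) stayed within 0.3 in all 8 tissues, beside 53.8% of all probes. It was passed in 1 tissue by 56 (31.6%, beside 28.2%), in 2 by 26 (14.7%, beside 10.5%) and in 3 by 6 (3.39%, beside 4.08%). In 4 tissues it was passed by 3 probes (1.69%, beside 1.57%) and in 6 by 2 (1.13%, beside 0.511%). These 5 were both probes of Cyp39a1 and 1 probe each of Ugt3a1, Gstt1 and Cyp2c65.

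**Figure D2:**
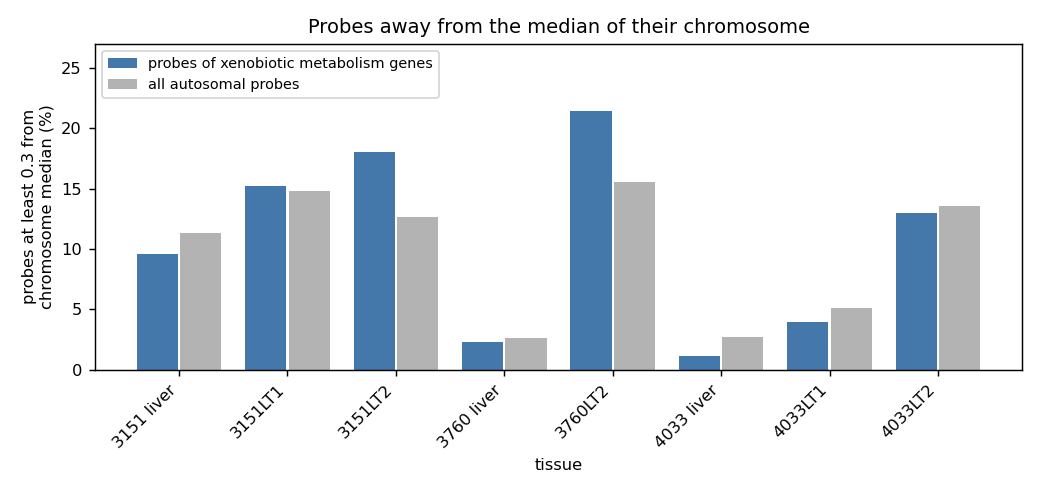
Share of probes (%) at least 0.3 (log2) from the median of their chromosome in each tissue, for the 177 probes of xenobiotic metabolism genes (blue) and all 40726 autosomal probes (gray). The blue bar is higher in 3151LT1, 3151LT2 and 3760LT2 and lower in the other 5 tissues.

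The genes were then taken as clusters, defined as runs of member probes with gaps of at most 500 kb, at least 4 probes and at least 3 genes. There were 10 such clusters, with 90 probes of 56 genes. Cluster means are a description, without a test. Centering on the mode shifts every cluster level by -0.25 in 4033LT1, by -0.11 in 3151LT2 and by 0.10 in 3151LT1, and leaves relative levels as they are.

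The Gstm cluster on Chr3 holds 7 genes of mu-class glutathione transferases, which detoxify electrophiles, covered by 10 probes. Its mean level was 0.09 in 3151LT1, -0.38 in 3151LT2, -0.21 in 3760LT2, -0.39 in 4033LT1 and -0.41 in 4033LT2. It was 0.02, -0.01 and 0.02 in the livers of mice 3151, 3760 and 4033. The cluster lay below its own liver in 4 of 5 HCC, with 3151LT1 as the exception. Its relative level was -0.05 to 0.03 in all 8 tissues as a mean over the cluster. Single genes spread further in 3760LT2, which has 1 array, from -0.34 for Gstm4 to 0.43 for Gstm7. Gstm1, its best-known member, had 1 probe with relative levels of -0.08 to 0.16.

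On Chr4 the Cyp2j cluster (4 genes, 8 probes), whose enzymes epoxidize arachidonic acid, was at -0.11, -0.40, -0.21, -0.31 and -0.46 in 3151LT1, 3151LT2, 3760LT2, 4033LT1 and 4033LT2. Its livers were at -0.22, -0.07 and -0.02 in mice 3151, 3760 and 4033, so HCC and liver overlapped. The neighboring Cyp4 cluster (Cyp4x1, Cyp4a14, Cyp4a10 and Cyp4b1, 5 probes) holds fatty acid hydroxylases. It was at -0.15 to -0.41 in HCC and at -0.30, -0.21 and -0.10 in the livers, which also overlapped. The liver of mouse 3151 was low for all of Chr4, with a chromosome median of -0.17. Cyp4a14, a target of the lipid sensor Ppara, had relative levels of -0.21 to 0.24 in HCC and -0.11 to 0.01 in liver.

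The largest cluster by probes lay on Chr5, from Ugt2b34 to Sult1e1 (9 genes, 19 probes). It joins glucuronosyltransferases for steroids and bile acids with sulfotransferases such as Sult1e1, which inactivates estrogen. Its mean level was 0.32 in 3760LT2 and 0.34 in 4033LT1, 0.08 and 0.04 in 3151LT2 and 4033LT2, and -0.12 in 3151LT1. The livers were at -0.01, 0.02 and -0.02. Centered on the mode, it was at 0.09 in 4033LT1, -0.03 in 3151LT2, 0.01 in 4033LT2 and -0.02 in 3151LT1, so that 3760LT2, at 0.32, was the one tumor with the same level under both. Ugt2b1 was covered by 3 probes, which in 3760LT2 read 0.50, 0.17 and 0.37. Within the cluster, a Ugt2a1 probe was at 0.83 in 3151LT2 and 0.76 in 3760LT2 but between -0.24 and 0.25 in the other HCC. The other Ugt2a1 probe read 0.23 and 0.05 in these same tumors.

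The Cyp2b to Cyp2t cluster on Chr7 (5 genes, 9 probes) was at -0.19, -0.28, -0.14, -0.30 and -0.07 in 3151LT1, 3151LT2, 3760LT2, 4033LT1 and 4033LT2 and at -0.08, -0.01 and -0.03 in the livers. All relative cluster levels in HCC were within 0.07 of 0. Cyp2b10, the phenobarbital-inducible gene of mouse liver, lay outside the cluster by the gap rule. Its probes were at -0.39 to 0.15 in HCC and -0.03 to 0.21 in liver. Cyp2e1, the ethanol-oxidizing enzyme of the same chromosome, was at -0.37 to 0.12 in HCC and -0.23 to 0.06 in liver. Sult1a1, which sulfates phenols, was at -0.65 in 3151LT2 and -0.49 in 4033LT2 and between -0.21 and 0.16 in the other tissues.

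On Chr10 the Gstt cluster (3 genes, 4 probes) of theta-class transferases was at 0.29 in 3760LT2 and 0.19 in 4033LT2, -0.42 in 4033LT1, and -0.08 and -0.06 in the tumors of mouse 3151. Centered on the mode, 3151LT1 was at 0.01. The livers were at 0.08, 0.01 and 0.01. Gstt1 had 2 probes that disagreed, with 0.43 and -0.21 in 3151 liver and -0.48 and 0.19 in 3151LT2.

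The Cyp4f cluster on Chr17 (6 genes, 9 probes), whose enzymes hydroxylate leukotrienes and long-chain fatty acids, was at -0.26 in 3151LT1, -0.35 in 3151LT2, -0.03 in 3760LT2, 0.12 in 4033LT1 and -0.41 in 4033LT2. The sign in 4033LT1 changed with centering on the mode. The livers were between -0.01 and 0.01, and all 8 relative levels were between -0.03 and 0.04. Cyp4f14 alone had a relative level of 0.55 in 3151 liver and -0.24 to 0.23 in HCC.

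The Cyp2c cluster on Chr19 (9 genes, 16 probes) encodes enzymes that oxidize many drugs and arachidonic acid. It was at -0.26, 0.10, -0.09, -0.33 and -0.14 in 3151LT1, 3151LT2, 3760LT2, 4033LT1 and 4033LT2, and at -0.17, -0.04 and -0.03 in the livers. Groups overlapped. Centered on the mode, 3151LT2 was at -0.01. Cyp2c29 had relative levels of -0.37 and -0.42 at its 2 probes in 3151 liver, and -0.15 and -0.43 in 3151LT1. In the tissues of mouse 4033 both probes were between -0.06 and 0.13. The mean relative level of the 2 probes was -0.21 in 3151LT2, 0.03 in 3760 liver and -0.25 in 3760LT2.

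The Cyp2d cluster on Chr15 (6 genes, 6 probes) is the mouse counterpart of the locus of CYP2D6, a drug oxidase of human liver. Its mean level was 0.15 in 3151LT1, 0.58 in 3151LT2, 0.21 in 3760LT2, 0.60 in 4033LT1 and 0.94 in 4033LT2, and 0.06, 0.11 and 0.02 in the livers of mice 3151, 3760 and 4033. Every HCC lay above every liver, also when centered on the mode, where 4033LT1 was at 0.36. The lowest tumor exceeded the highest liver by little, and the HCC mean was 0.50 ± 0.32 (SD, n = 5) against 0.07 ± 0.05 (SD, n = 3). The difference of 0.43 was 0.34 within scan day 1 (2 HCC, 2 livers) and 0.50 within scan day 2 (3 HCC, 1 liver). The relative level was -0.17 in 3151LT1, -0.14 in 3760LT2, 0.18 in 4033LT2 and 0.05 or less from 0 in the other tissues. Cyp2d22 had a level of 0.94 in 4033LT2 and -0.24 in 3760LT2, the latter on 1 array. Its relative levels in these tumors were 0.18 and -0.59.

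**Figure D3:**
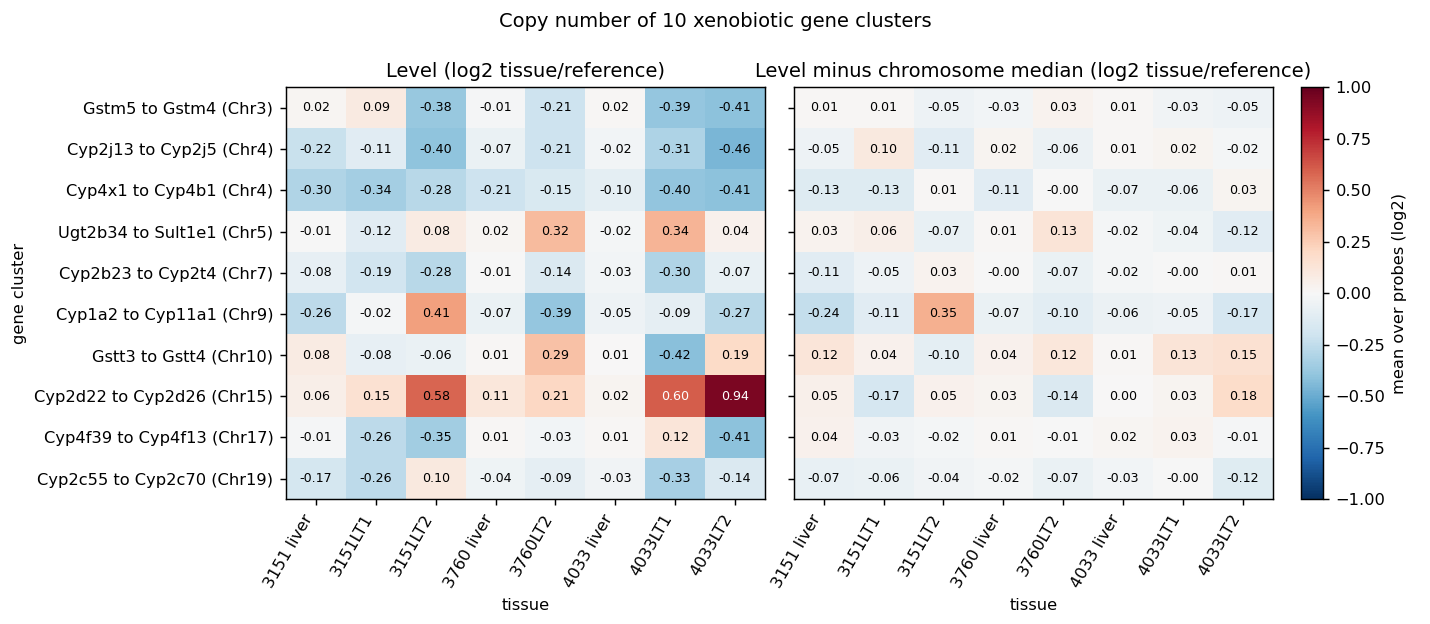
Mean level (left) and mean relative level (right) of 10 gene clusters in 8 tissues, both in log2, with the value printed in each cell and colors from -1 to 1. On the left the Cyp2d cluster reaches 0.94 in 4033LT2 and the Gstm cluster falls to -0.41. On the right the cells run from -0.24 in 3151 liver to 0.35 in 3151LT2, both for the Cyp1a2 to Cyp11a1 cluster.

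The Cyp1a2 to Cyp11a1 cluster on Chr9 (3 genes, 4 probes) held both the highest and the lowest relative level of that plot, 0.35 in 3151LT2 and -0.24 in 3151 liver. Cyp1a1 and Cyp1a2 oxidize polycyclic aromatic compounds, and Cyp11a1 starts steroid synthesis. The Cyp1a1 probe had a relative level of 3.61 on the dye-swap array of 3151LT2 and -0.58 on the forward array. On the other 13 arrays it ranged from -0.96 to 0.43. Without it, a choice made after seeing the data, the relative level of the cluster in 3151LT2 was -0.04 in place of 0.35, and that in 3151 liver was -0.20 in place of -0.24. In 4033LT2 the cluster was at -0.17, and -0.08 without the probe. The Cyp1a2 probe had a relative level of 0.09 in 3151LT2 and between -0.13 and -0.03 in the other 7 tissues.

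To find enzyme genes separated from their chromosome by a breakpoint, each HCC was set against its own liver and each autosome was divided into segments of at least 5 probes. A segment with less than 50% of the probes of its chromosome and a mean at least 0.3 from the chromosome median was counted. Segments of this kind held 13 of the 177 probes (7.34%) in 3151LT1 and 4.76% of all autosomal probes. In the other 4 HCC they held 0 of 177 and at most 0.756% of all. Smaller steps, under 0.3 from the chromosome median, separated member genes in other tumors too. In 3760LT2 the segment of Chr8 with Cyp4v3 and Cyp4f18 (1038 probes) had a mean of 0.01 in level minus own liver, and that with Sult5a1 (1113 probes) had -0.25. In 4033LT2 the segment of Chr9 with Cyp19a1 and the Cyp1a2 to Cyp11a1 cluster (598 probes) had -0.26, and that with Gsta4, Gsta2 and Cyp8b1 (1116 probes) had -0.10. In the same tumor the segment of Chr3 with all Gstm genes (961 probes) had -0.45, and that with Cyp7b1 (1211 probes) had -0.31.

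In 3151LT1 a boundary on Chr15 fell between the Cyp2d cluster and Sult4a1. Segments met between positions 82696652 and 82728343, and the last Cyp2d probe before them, of Cyp2d26, started at 82624635. In level minus own liver, the segment with the Cyp2d cluster had a mean of 0.12 over 332 probes and the next one, with Sult4a1, had 0.58 over 571 probes. The 6 Cyp2d probes had relative levels of -0.33 to -0.08 in 3151LT1, and the 3 Sult4a1 probes, at 83909208 to 83931226, had 0.37, 0.27 and 0.36. In 3151 liver they were at 0.02, -0.11 and 0.00. The second tumor of the mouse, 3151LT2, had a Cyp2d cluster level of 0.58 and a Sult4a1 level of 0.69 and no boundary there.

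**Figure D4:**
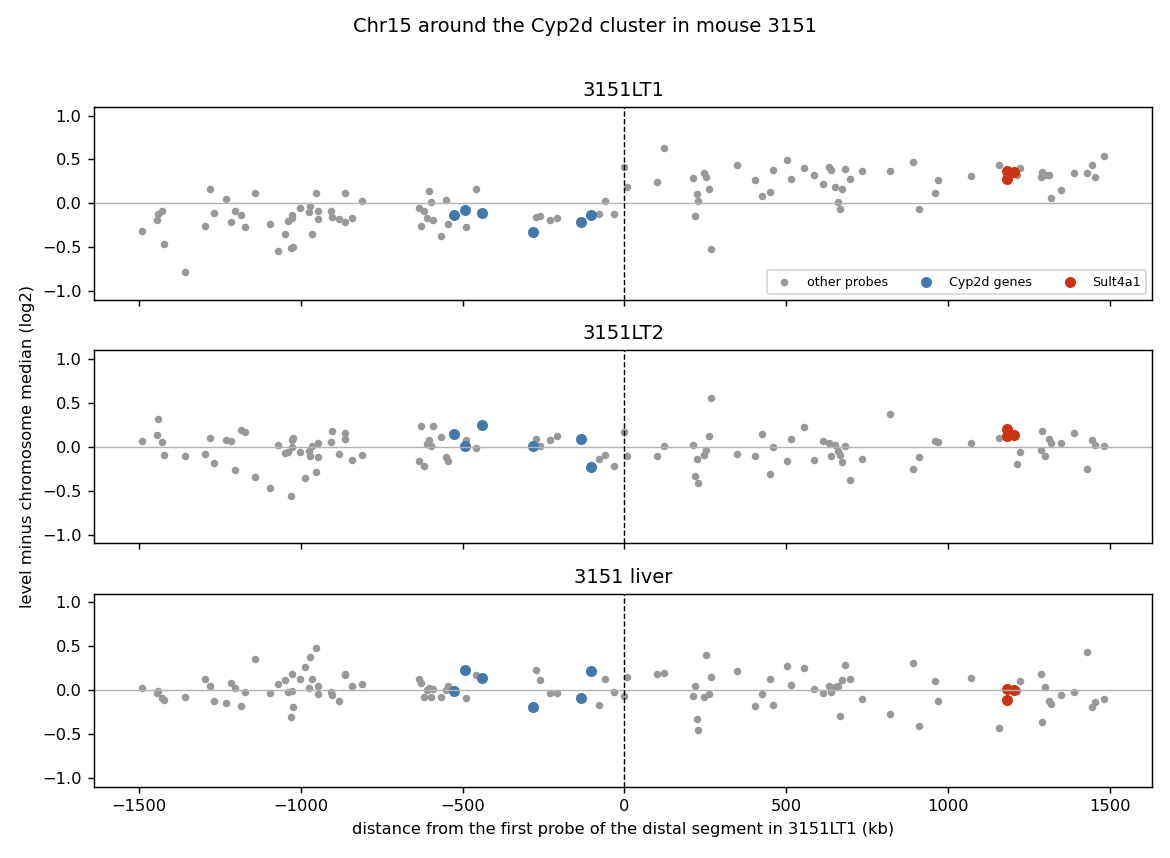
Relative level (log2) of probes around the boundary on Chr15 of 3151LT1, plotted against distance from it (kb), in the 2 tumors and the liver of mouse 3151. In 3151LT1 the 6 Cyp2d probes (blue) lie below 0 and the 3 Sult4a1 probes (red) near 0.3, while in 3151LT2 and the liver there is no step at the dashed line.

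The Cyp3a genes were separated in the same tumor. Cyp3a11 is the main drug-oxidizing Cyp3a enzyme of mouse liver. Its probe and that of Cyp3a16 lay in a segment from 138684047 to 152452546 of Chr5 (338 probes, 0.49 above the chromosome median). Their relative levels in 3151LT1 were 0.34 and 0.59, against -0.10 and 0.13 in its liver. Cyp3a13, whose 2 probes at 138335448 and 138354958 lay in the segment before it, was at -0.10 and 0.23 in 3151LT1 and -0.22 and 0.24 in the liver. The Ugt2b34 to Sult1e1 cluster lay in that earlier segment too. In level, Cyp3a11 was at 0.06 to 0.36 in HCC and -0.13 to 0.01 in liver, with no overlap (difference 0.26, limma adjusted p = 0.707), and Cyp3a16 did not overlap either.

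On Chr1 of 3151LT1, all members lay in 2 segments above the chromosome median. One, from 4336501 to 81741695 (1029 probes, 0.30 above the chromosome median), held Gsta3, Cyp20a1 and Cyp27a1, a mitochondrial enzyme of bile acid synthesis. Their 8 probes had relative levels of 0.10 to 0.53 in 3151LT1 and -0.41 to 0.19 in 3151 liver. The other, from 82747070 to 100446595 (305 probes, 0.27 above), held both probes of Ugt1a10, a glucuronosyltransferase, with 0.28 and 0.20 in 3151LT1 and 0.13 and 0.06 in the liver.

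The mice were then compared with each other, since tissues of mixed C57BL/6.129 origin can carry different inherited copies of clustered genes. The F-test of the mouse term, with HCC or liver as a covariate, called 2 of 177 probes (1.13%) and 532 of 40726 (background 1.31%), so these genes were not called more often than the array as a whole. Member genes at least 0.3 from the chromosome median, in 1 direction, in every tissue of a mouse were 2 of 104 (1.92%), beside 655 of 25916 (background 2.53%). The same genes, Ugt3a1 and Cyp39a1, met both rules, and neither lay in a cluster as defined above. Each was covered by 2 probes, of which 1 was called. The sequences of all 4 probes are given as the array files hold them, 5′ to 3′ and in lower case throughout, because in each gene the probes read differently. Positions are those of the files, which name no genome build, and whether a probe lies in an exon or an intron was not determined.

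Ugt3a1, probe called between mice, Chr15, 9231347 to 9231406: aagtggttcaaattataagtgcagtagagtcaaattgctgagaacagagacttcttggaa
Ugt3a1, other probe, Chr15, 9213882 to 9213941: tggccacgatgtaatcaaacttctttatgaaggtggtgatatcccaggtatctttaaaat
Cyp39a1, probe called between mice, Chr17, 43880567 to 43880626: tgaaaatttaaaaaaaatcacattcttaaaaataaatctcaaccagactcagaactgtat
Cyp39a1, other probe, Chr17, 43862438 to 43862497: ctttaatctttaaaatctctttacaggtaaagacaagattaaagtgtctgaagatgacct

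Ugt3a1 belongs to a branch of the glucuronosyltransferase family that transfers N-acetylglucosamine. The called probe had relative levels of 0.55, 0.45 and 0.70 in the liver, LT1 and LT2 of mouse 3151. It was at 0.01 and 0.04 in the liver and LT2 of mouse 3760, and at -1.04, -1.14 and -1.20 in the liver, LT1 and LT2 of mouse 4033. The mice did not overlap, and liver and tumors of a mouse lay together. The mouse means spanned 1.69 (limma adjusted p = 7.65e-05). Both dye orientations had the same sign in every tissue of mice 3151 and 4033, from 0.32 to 0.98 and from -1.38 to -1.02. The other Ugt3a1 probe was at -0.14 to 0.08 in all 8 tissues. The 20 neighboring probes of the called one averaged -0.07 to 0.05 per tissue, and the lowest of them in the tissues of mouse 4033 was at -0.51.

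Cyp39a1 is an oxysterol hydroxylase of bile acid synthesis. The called probe had relative levels of -1.42, -1.35 and -1.06 in the liver, LT1 and LT2 of mouse 3151, -0.12 and -0.11 in the liver and LT2 of mouse 3760, and -0.83, -0.84 and -1.1 in the liver, LT1 and LT2 of mouse 4033. Mouse 3760 stood apart from the other mice. The mouse means spanned 1.16 (limma adjusted p = 0.00709). The call was lost without 3760LT2 (0.123), without 3760 liver (0.0742), with scan day in the fit (0.178) and on dye-swap arrays alone (0.677), each value being a limma adjusted p. Both orientations were below -0.8 on all 12 arrays of mice 3151 and 4033. The other Cyp39a1 probe had tissue values of -0.52 to 0.46 and was not called (limma adjusted p = 0.681). Its orientations were apart in 4033LT2, at -1.33 on the forward and 0.53 on the dye-swap array. The 20 neighboring probes of the called one averaged -0.02 to 0.11 per tissue. The called probe contained a run of 8 identical bases and 23.3% G or C, at the low end of the 18.3% to 47.9% of the 177 probes, and shared a run of 16 bases with another probe on the array. The part of these features in its values was not tested.

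**Figure D5:**
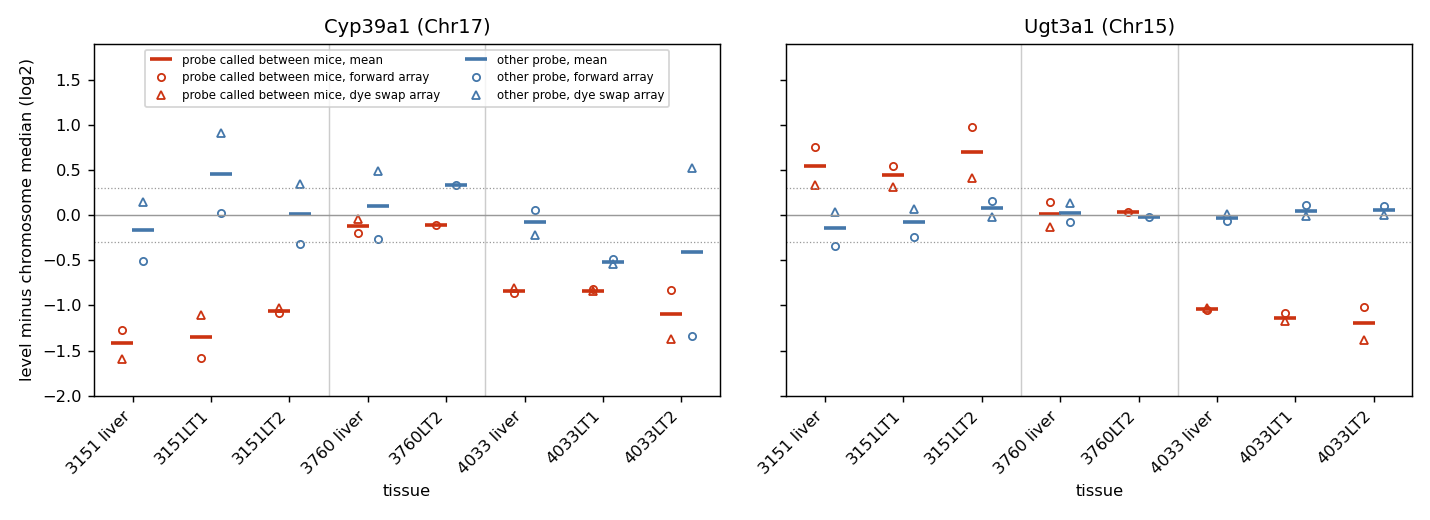
Relative level (log2) of both probes of Cyp39a1 and Ugt3a1 in each tissue, with bars for the tissue mean and open circles and triangles for the forward and dye-swap arrays. The called probe of Ugt3a1 (red) is at 0.45 to 0.70 in mouse 3151, near 0 in mouse 3760 and at -1.20 to -1.04 in mouse 4033, and that of Cyp39a1 is near 0 in mouse 3760 alone.

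Mouse 3151 was scanned wholly on day 2 and mouse 3760 wholly on day 1, so mouse and scan day can be told apart only through mouse 4033, which had tissues on both. In mouse 4033 the called Ugt3a1 probe was at -1.04 and -1.14 in the tissues of day 1 and -1.20 in that of day 2. Whether the tissue or its reference carried the change could not be told apart for a mouse on its own.

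A further difference between mice lay just beyond the Ugt1a locus on Chr1, which encodes the glucuronosyltransferases that include the bilirubin-conjugating enzyme. It was singled out after its values were seen. It set mouse 3151 apart from mice 3760 and 4033, which also differ from it in sex, reference sex, p53 genotype and age. These cannot be told apart here. The 3 probes after Ugt1a10, named AK133186 and 6430706D22Rik, lay 55.3 to 69.0 kb beyond its last probe (90156646 to 90170398). Their relative levels were -0.88 to -1.73 in all 5 tissues of mice 3760 and 4033 and -0.47 to 0.54 in the tissues of mouse 3151, and all 3 were called between mice. The Ugt1a10 probes themselves were at -0.19 to 0.09 in mice 3760 and 4033 and at 0.06 to 0.28 in mouse 3151, and neither was called (limma adjusted p = 0.84 and 0.943).

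Several further enzymes overlapped between HCC and liver in relative level. Cyp1a2, which oxidizes caffeine, was at -0.13 to 0.09 in HCC and -0.11 to -0.07 in liver. Gstp1, the pi-class transferase, was at -0.76 in 3151LT2, and in the other HCC it did not exceed 0.21. In 3151LT2 both orientations were below 0, at -0.45 and -1.09. Gstz1, which acts in tyrosine breakdown, had a difference of -0.22 at 1 probe and -0.04 at the other. Cyp19a1, the aromatase gene, had differences of -0.14 and -0.03. Ugt2a3 differed by -0.19 and 0.14, so its 2 probes disagreed in sign. Cyp2a5, Ugt1a1, Sult2a1 and Gsta1 had no probe by these names.

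Other genes of the pathway were described from a list of 62 receptors, electron donors, further enzymes and transporters, of which 58 were on the array with 115 probes. Of these probes, 0 were called in level or relative level between HCC and liver, in either direction. An unadjusted p under 0.05 was reached in level by 2 higher and 3 lower of 115, beside 3012 of 40726 over all probes, and the median difference was 0.04. Between mice 1 of 115 was called, beside 532 of 40726 (background 1.31%), so the list was not called more often than the array. It belonged to Nnmt, which methylates nicotinamide, with relative levels of -0.52 to -0.38 in mouse 3151 and 0.42 to 0.87 in mice 3760 and 4033 (limma adjusted p = 0.00221). The second Nnmt probe was at -0.08 to 0.15. As at the Ugt1a locus, mouse 3151 also differed from the other mice in sex, reference sex, p53 genotype and age. Por, the electron donor of all microsomal cytochromes P450, had relative levels of -0.28 to 0.14 at its 2 probes.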

How the data were processed

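Array comparative genomic hybridization was measured in 8 liver tissues on 15 two-color Agilent arrays. Per the file headers, the authors made the deposited intensity values with Agilent Feature Extraction 9.1.3.1, background-subtracted and dye-normalized within each array, and the deposited log10 ratios of the value table equal the LogRatio of the scanner files with the sign turned on dye swaps. The genome build is not given in the sources used here. Each spot's processed intensities were turned into a log2 ratio with tissue as the numerator, control and outlier-flagged spots were left out, and each array was centered on the median of its autosomal probes without loess. Both orientations were averaged to 1 replicate. Features were compared with limma 3.58.1 (lmFit, eBayes; R 4.3.3), two-sided, with Benjamini-Hochberg adjustment over all 40726 autosomal probes at 0.05, and the mouse term by its F-test. The number of tissues limits the precision. Segments were found by optimal partitioning, in which each added segment had to lower the squared error by 3 noise variances multiplied by the log of the probe number. The steps were tested on simulated data. Computations used Python 3.11.15, numpy 2.4.6 and pandas 2.3.3.

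The genes, clusters and lists were chosen with earlier results of these data known. Named were the genes 0.3 or more from the chromosome median throughout a mouse, the 8 probes with the smallest p of each comparison of HCC with liver, genes called between mice, 18 liver enzymes listed by name (14 on the array) and every cluster. Of the 104 gene names, 103 were current in the RefSeq gene table and 1 was listed there as a synonym. Tumors and liver came from the same animals, which pairs the groups. Deviations of relative levels from the group means correlated with r of -0.01 to 0.40 within a mouse and -0.71 to 0.11 between mice. Subtracting a group mean by itself lowers r between tissues of 1 group. Such pairs mostly join different mice, so these ranges do not test the pairing. Alternatives were the background correction, centering, dye orientation, value table, spot filters, each tissue left out, mouse, slide and scan day in the fit, and the mean of a gene's probes.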

Additional observations from a re-analysis of the deposited data

Results flagged for a closer look

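Among 70 series of values over the 5 HCC (clusters and named genes, in level and relative level), 3 had a tumor whose gap to the nearest of the other 4, divided by the range of the 5, was past Dixon's critical value, which by its definition chance passes in about 1 in 20 groups. All 3 were relative levels of 3151LT2. They were the cluster Cyp1a2 to Cyp11a1 at 0.35, which was -0.04 without the Cyp1a1 probe, Cyp2b19 at 0.14, and Gstp1 at -0.76. The level of the Cyp1a2 to Cyp11a1 cluster minus own liver was positive in both tumors of mouse 3151 and negative in both tumors of mouse 4033. The mean difference between these mice was 0.58 and was not tested. Without the Cyp1a1 probe the values were 0.13 and 0.24 in mouse 3151 and -0.05 and -0.10 in mouse 4033.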

How the results depend on the processing

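No probe of these genes was called between HCC and liver, in level under 22 alternatives or in relative level under 23, including the replicate block by mouse, which called 0 in both. Probes of these genes at an unadjusted p under 0.05 ranged from 8 to 32 in level and from 0 to 9 in relative level. Over all probes the ranges were 1480 to 6306 in level and 241 to 2046 in relative level. The 2 calls between mice became 1 on dye-swap arrays alone, with scan day in the fit and with the mean of a gene's probes as the feature, and ranged from 1 to 2 with 1 tissue left out, where the value of 1 came without 3760LT2 or 3760 liver. Ugt3a1 was called in all 19 alternatives at the probe level (limma adjusted p from 1.2e-05 to 0.00745) and Cyp39a1 in 15 of 19 (0.00141 to 0.677). Over all probes, calls between mice ranged from 212 to 1003, against 532. The 2 genes that kept 0.3 throughout a mouse became 6 of 104 on forward arrays alone (4.52% of all genes), 8 on dye-swap arrays alone (6.96% of all) and 1 at a threshold of 0.5 (1.24% of all), and ranged from 2 to 15 with 1 tissue left out. The 15 came without 3760 liver (3375 of all 25916 genes), which leaves mouse 3760 with 1 tissue on 1 array. Of 425 differences of 25 named genes, 412 moved by less than the spread between tissues and 13, of 7 genes, moved further, all with normexp or on arrays of 1 orientation. Single probes carry a limit: across these genes, the relative level of 1 probe in 1 tissue mostly did not repeat between orientations.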

Other observations

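Cyb5r3, which passes electrons to microsomal cytochrome b5, had 2 probes on Chr15, of which 1 differed between scan days. This probe had relative levels of 2.17, 2.28, 3.02 and 3.14 in 3760 liver, 3760LT2, 4033 liver and 4033LT1, all scanned on day 1. On day 2 it was at 0.15 in 3151 liver, -0.52 in 3151LT1, 0.56 in 3151LT2 and 0.44 in 4033LT2. Mouse 4033 had tissues at both levels. The other probe was at -0.25 to 0.16 in all 8 tissues. This gene was singled out after its values were seen.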
